A study of Mus musculus with 90 samples.

Results

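The comparison described here sets mouse livers that received both agents of a PKA activation experiment against livers that received neither, and covers 20 of the 90 liver RNA-seq samples of the study. The 10 libraries labelled Prkar1a KD + Gcgr mAb (KD + mAb below) came from livers with a knockdown (KD) of Prkar1a and an antibody (mAb) against the glucagon receptor, and the series' design text names AAV8 vectors with short hairpin RNAs as the means of knockdown. The 10 libraries labelled Control AAV + Control mAb (control below) came from livers with a control AAV and a control antibody. Members were chosen by these labels alone. In the same experiment, 10 libraries with the knockdown and the control antibody (Prkar1a KD + Control mAb, KD alone below) and 10 with the control AAV and the receptor antibody (Control AAV + Gcgr mAb, mAb alone below) show what each agent did by itself. A separate experiment of the study lowered components of the receptor pathway in 50 further livers. The sources used here do not give mouse sex, strain or age, the hairpin sequence, the vector and antibody doses, the times of treatment or whether the knockdown was restricted to hepatocytes.

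Glucagon binds its receptor on hepatocytes, and the stimulatory G protein then activates adenylyl cyclase and raises cAMP. Cyclic AMP releases the catalytic subunits of protein kinase A (PKA) from their regulatory subunits, of which Prkar1a encodes one, and the free kinase phosphorylates CREB and its coactivators, which raises genes of gluconeogenesis and amino acid breakdown. Less Prkar1a protein therefore leaves more PKA active, while an antibody that blocks the receptor lowers the signal upstream of cAMP. Giving both agents asks how liver transcripts stand when the knockdown and the receptor block are combined. Against control both agents change at once, while KD + mAb over mAb alone keeps the block on both sides. RNA levels do not measure PKA activity itself.

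Total counts were 8.87 to 18.9 M per library in KD + mAb and 11.55 to 19.25 M in control. Levels below are in CPM, the count of a gene scaled to the total of its library over the genes tested. That total was first multiplied by the library's TMM scaling factor. The unit does not correct for transcript length and so serves to compare a gene between libraries, not genes with each other. No label ties a sample to its own mouse, and the p-values therefore reflect sample spread, which may be partly technical. Each change is a log2 fold change with its SE (n = 10 libraries a group), positive when KD + mAb was higher, and genes count as called below an adjusted p of 0.05 by the quasi-likelihood F test of edgeR. Some libraries stood apart. KD + mAb replicate 2 was the shallowest. KD + mAb replicates 2 and 7 and control replicates 9 and 10 were extreme for several of the genes below, by the rule described near the end. That rule was not run on mAb alone. Its replicate 2 was the lowest of its group for Abcg5 (43.4 CPM) and Abcg8 (34.7 CPM), among others. Control replicate 9 was not among the libraries left out in the alternatives.

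Prkar1a transcripts were lower in every KD + mAb library. Prkar1a (GRCm38.p6: Entrez gene 19084, chromosome 11, 109649023 to 109669663), which encodes the type I alpha regulatory subunit of PKA, stood at 30.2 to 41.4 CPM (median 32.7) in KD + mAb, against 97.8 to 135 CPM (median 122) in control. The groups did not overlap, and the change was -1.87 ± 0.058 (adjusted p = 1.30e-26). It averaged 32.1 ± 2.21 CPM (mean ± SD) in KD alone and 113 ± 6.57 CPM in mAb alone. In bulk liver, fewer cells of a type and less RNA per cell cannot be told apart. Prkar2a, another regulatory subunit, averaged 40.7 ± 6.297 CPM in KD + mAb and 73.6 ± 12.3 CPM in control and fell by 0.85 on the log2 scale. The catalytic subunit gene Prkacb rose by 0.29 ± 0.070, and the other, Prkaca, was at -0.091 ± 0.074 (adjusted p = 0.318). Of 17 tested genes of PKA subunits, anchors and inhibitors, 5 were higher and 4 lower. Listed members that did not pass the filter on low counts were not tested, here and in the lists below. All lists were chosen with earlier results of these data known, so their counts describe these data and are not an independent test. For the comparison as a whole, 26.0% of all 12847 genes tested were called higher and 24.2% lower in KD + mAb (50.2% in either direction). The receptor gene Gcgr was lower at -0.32 ± 0.066 (adjusted p = 1.08e-04), with 131 ± 8.497 CPM in KD + mAb and 163 ± 15.6 CPM in control, and Gnas, the stimulatory G protein subunit, was lower at -0.29 ± 0.072 (adjusted p = 7.87e-04). Rapgef4, which encodes the cAMP-activated exchange factor Epac2, was higher at 0.79 ± 0.11 (adjusted p = 1.66e-07).

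**Figure D1:**
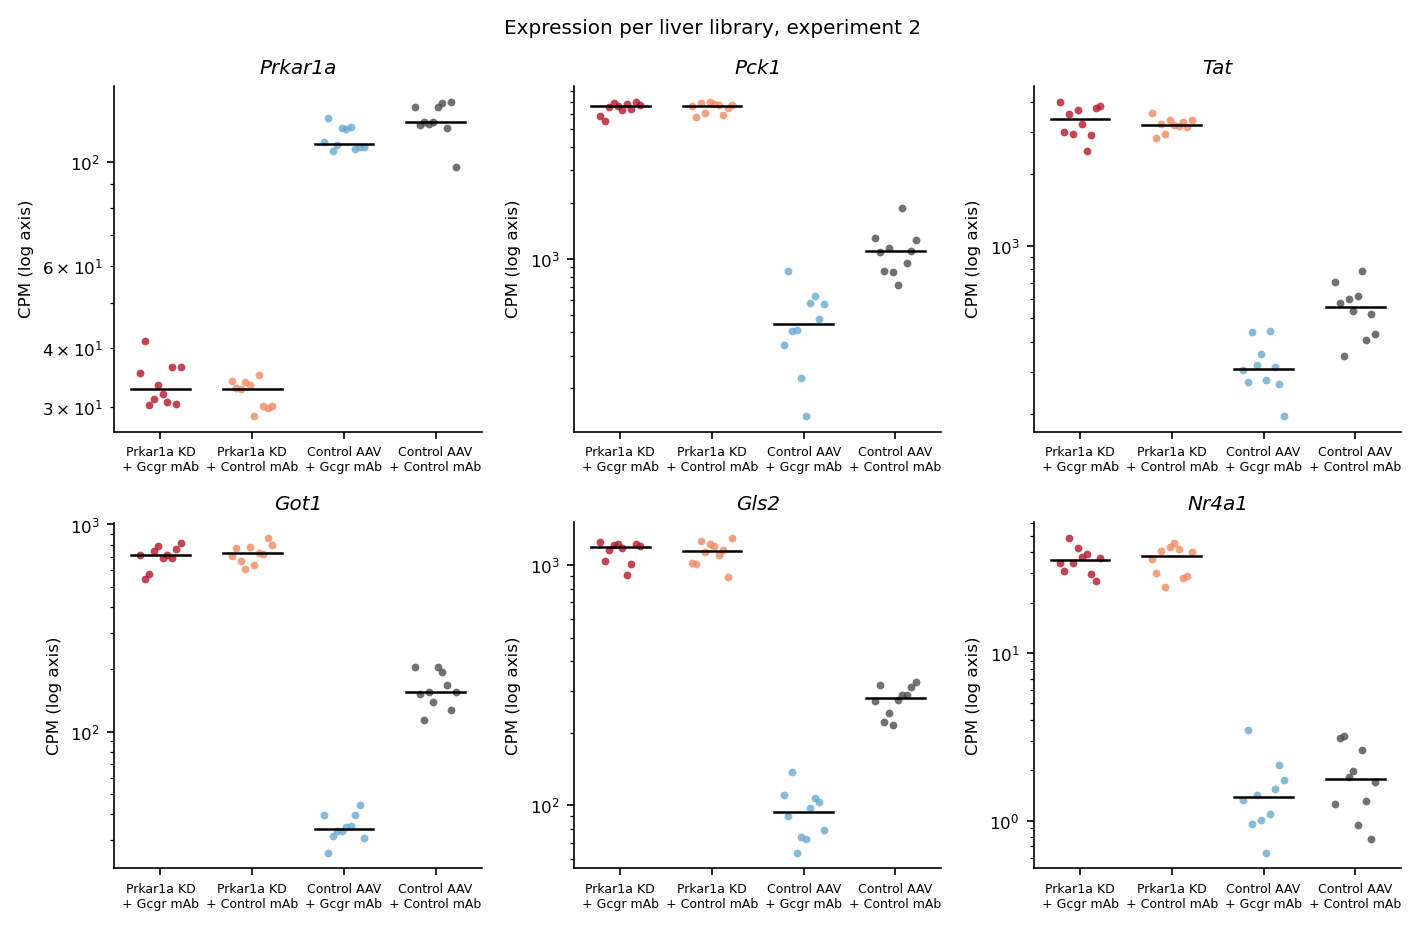
CPM on a log axis in each of the 10 libraries (points) of the 4 groups of experiment 2, with the group median as a line, for the knocked-down gene Prkar1a and 5 genes that were higher in KD + mAb. The KD + mAb and KD alone groups lie together, and for Got1 and Gls2 the mAb alone group lies below the control group.

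**Figure D2:**
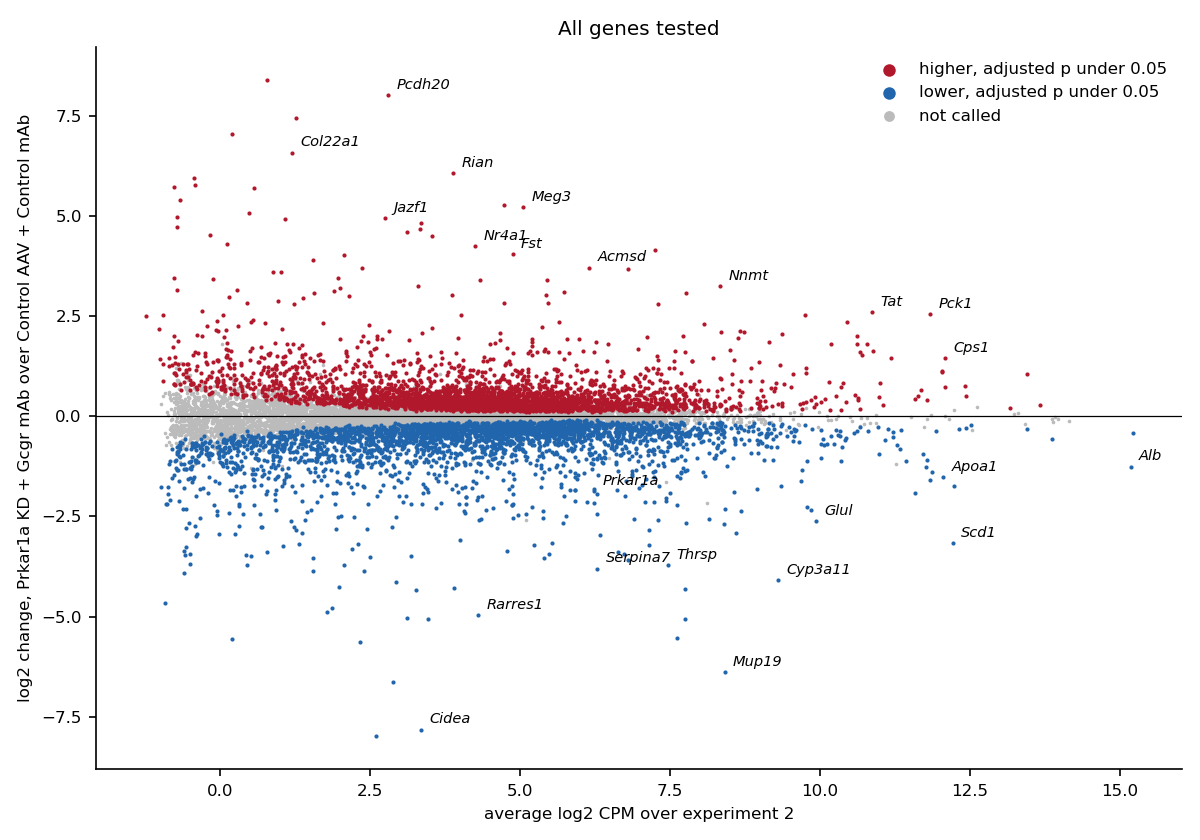
Log2 change of Prkar1a KD + Gcgr mAb over Control AAV + Control mAb (vertical) against the average log2 CPM of each of the 12847 genes tested, with genes called higher in red, called lower in blue and named genes in italics. Of the called genes, 3334 lie above and 3111 below 0.

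In all, 3334 genes were higher and 3111 lower, and in 1378 genes (10.7%) all 10 libraries of 1 group lay past all 10 of the other. A log2 change beyond 1 was reached by 433 genes upward (3.37%) and 588 downward (4.58%), and a change beyond 2 by 97 upward (0.755%) and 150 downward (1.17%). The mean against change plot shows calls in both directions at low and high expression.

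Pck1, G6pc and Fbp1, genes of glucose production, were higher. Pck1 encodes the cytosolic phosphoenolpyruvate carboxykinase, which commits oxaloacetate to glucose. Its level was 5547 to 7021 CPM (median 6639) in KD + mAb, against 723 to 1883 CPM (median 1094) in control. The groups were apart, and the change was 2.54 ± 0.19 (adjusted p = 2.16e-14). G6pc, the glucose-6-phosphatase catalytic subunit, stood at 133 to 844 CPM (median 602) in KD + mAb and 67.2 to 297 CPM (median 236) in control. The groups overlapped through KD + mAb replicate 7, the lowest of its group, and the change was 1.39 ± 0.24 (adjusted p = 9.78e-06). Fbp1, fructose-1,6-bisphosphatase, rose by 0.86 ± 0.071, and Ppargc1a, a coactivator induced by fasting and cAMP, rose by 1.83 ± 0.17 (adjusted p = 7.22e-12) with 23.99 to 64.6 CPM (median 35.6) in KD + mAb, against 7.34 to 15.9 CPM (median 10.5) in control, without overlap. Of 22 tested genes of gluconeogenesis and glycogen breakdown, 8 were higher (36.4%) and 7 lower (31.8%), beside 26.0% and 24.2% of all genes. Their median change was 0.044, against 0.012 over all genes. The lower ones included the mitochondrial pyruvate carboxylase Pcx (-0.70 ± 0.063) and the glucose-6-phosphate transporter Slc37a4 (-0.94 ± 0.11).

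CREB binds a palindrome, TGACGTCA, or the shorter TGACG, which reads CGTCA on the opposite strand. Both were searched on both strands in the 250 bases before RefSeq start sites (GRCm38.p6), where 10236 tested genes had a window. The palindrome was in 2.94% of these genes, in 3.41% of those higher in KD + mAb and in 2.83% of those lower. The shorter motif, which the palindrome contains and which was searched after the palindrome result was known, was in 30.0% of all, 33.0% of the higher and 27.9% of the lower genes. Among genes with a log2 change beyond 1, it was in 26.2% of the 328 higher genes, below the share of all genes, and in 19.6% of the 445 lower ones, while the palindrome was in 4.57% and 2.02%. These stretches of genes that rose are shown because they hold the motif, with the copy nearest the start site in capitals and 40 bases on each side, cut at the start site where it is nearer, while other copies stay in lower case.
Pck1 (chr2:173152943-173153027, plus strand): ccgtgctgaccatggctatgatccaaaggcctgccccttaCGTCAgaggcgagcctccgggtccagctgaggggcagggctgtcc
Ppargc1a (chr5:51567730-51567814, minus strand): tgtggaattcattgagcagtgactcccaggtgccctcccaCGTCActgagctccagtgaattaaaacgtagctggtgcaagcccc
Nr4a1 (chr15:101266766-101266845, plus strand): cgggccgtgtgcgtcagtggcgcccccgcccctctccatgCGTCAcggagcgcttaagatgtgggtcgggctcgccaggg
Meg3 (chr12:109540899-109540986, plus strand): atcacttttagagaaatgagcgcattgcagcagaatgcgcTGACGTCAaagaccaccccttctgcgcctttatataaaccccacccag
The capitals end 85, 44, 35 and 49 bases before the start in Pck1, Ppargc1a, Nr4a1 and Meg3. Meg3 held the full palindrome, and the other 3 the shorter motif. Of the rising genes searched in this way, Nr4a2, Nr4a3, Per1 and Asns also held the shorter motif. G6pc, Got1, Igfbp1, Tat, Oat, Irs2, Lrp2, Pcdh20, Ren1, Jazf1, Tuba8, Rian and AA986860 held neither in their windows. Gls2, Cps1, Sds, Sik1, Nptx1 and Col22a1 had no window. A match of letters is a description of the sequence and not evidence of binding.

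Enzymes that break down amino acids were higher more often than lower. Of 61 tested genes of amino acid catabolism, 33 were higher (54.1%) and 11 lower (18.03%), beside 26.0% and 24.2% of all genes. Their median change was 0.27. Tat, tyrosine aminotransferase, stood at 2481 to 3998 CPM (median 3389.9) in KD + mAb, against 347 to 788 CPM (median 558) in control. Every KD + mAb library was above every control library, with a change of 2.59 ± 0.13 (adjusted p = 8.36e-20). Got1, the cytosolic aspartate aminotransferase, stood at 546 to 817 CPM (median 711) in KD + mAb, against 114 to 206 CPM (median 156) in control, a change of 2.12 ± 0.098 (adjusted p = 1.02e-20). Gls2, the liver glutaminase that frees ammonia for the urea cycle, was at 908 to 1246 CPM (median 1191) in KD + mAb and 217 to 327 CPM (median 281) in control, a change of 2.05 ± 0.10 (adjusted p = 1.42e-19). For both genes the groups did not overlap. The largest rise of the list was in Acmsd, which steers tryptophan breakdown away from NAD synthesis, at 3.71 ± 0.17 (adjusted p = 1.39e-20). Cth, which makes cysteine from cystathionine, rose by 2.51 ± 0.11, the ornithine aminotransferase Oat by 1.51 ± 0.21 and the serine dehydratase Sds by 1.41 ± 0.20. The members that fell included Bhmt, the betaine-homocysteine methyltransferase, at -1.09 ± 0.19 (adjusted p = 7.88e-06), Pcbd1, a cofactor recycling enzyme of phenylalanine hydroxylase, at -1.0 ± 0.085, and Gcsh, a subunit of the glycine cleavage system, at -0.83 ± 0.066.

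Most urea cycle genes were higher, and glutamine synthetase was lower. Of 10 tested genes of the urea cycle and ammonia handling, 7 were higher and 1 was lower, with a median of 0.72. Of all genes tested, 26.0% were higher and 24.2% lower. Cps1, which fixes ammonia into carbamoyl phosphate, averaged 6615 ± 517 CPM in KD + mAb and 2423 ± 915 CPM in control, a change of 1.45 ± 0.14 (adjusted p = 2.51e-11). Asl, argininosuccinate lyase, rose by 1.34 ± 0.091, the ornithine carrier Slc25a15 by 1.2 ± 0.082, and Arg1, arginase, by 0.82 ± 0.082. The lower member was Glul, glutamine synthetase of the hepatocytes around the central vein, at 193 to 416 CPM (median 222) in KD + mAb, against 1172 to 2028 CPM (median 1735) in control. The 2 groups did not overlap, and the change was -2.62 ± 0.23 (adjusted p = 2.34e-12). Of 26 amino acid transporters tested, 14 were higher (53.85%) and 4 lower (15.38%). Slc7a2, a carrier of arginine and lysine, rose by 2.34 ± 0.12 (adjusted p = 3.74e-19), Slc1a5, a carrier of glutamine, by 2.0 ± 0.22, and Slc38a2, another glutamine carrier, by 1.51 ± 0.11. Slc25a47 and Slc6a9, which carries glycine, were lower at -0.96 ± 0.14 and -0.92 ± 0.12.

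Genes of the early cAMP response were higher more often than lower. Of 25 tested genes of CREB, its coactivators and the early cAMP response, 15 were higher and 3 lower, with a median of 0.56. Nr4a1, an orphan nuclear receptor induced by cAMP, stood at 26.9 to 48.5 CPM (median 35.7) in KD + mAb, against 0.777 to 3.202 CPM (median 1.77) in control. Its groups did not overlap, at 4.23 ± 0.21 (adjusted p = 1.09e-19). The related Nr4a2 and Nr4a3 rose by 2.31 ± 0.23 and 2.53 ± 0.39. Sik1, a salt-inducible kinase that restrains the CREB coactivators, rose by 3.02 ± 0.20 (adjusted p = 9.84e-16), and Irs2, an insulin receptor substrate with a cAMP-responsive promoter, by 1.91 ± 0.24. The lower members were Lpin1 at -1.28 ± 0.21, Crtc3 at -0.34 ± 0.095 and Atf1 at -0.24 ± 0.057. Of the higher members of this list, 12 had a promoter window, and 8 of these (66.7%) held the shorter motif and 0 the palindrome. The share was about the same over the whole list, called or not, at 13 of 20 (65.0%) with the shorter motif and 1 with the palindrome, against 30.0% and 2.94% of all genes, so it does not set the higher members apart from the rest of the list. Phosphodiesterases, which degrade cAMP, counted 7 higher (53.85%) and 2 lower (15.38%) of 13 tested. Pde10a was at 2.296 to 9.92 CPM (median 6.95) in KD + mAb and 0.178 to 1.198 CPM (median 0.332) in control, without overlap and with a change of 4.01 ± 0.30 (adjusted p = 3.94e-14). Pde7b rose by 1.09 ± 0.15 and Pde4b by 0.93 ± 0.13, while Pde1a and Pde2a were lower at -0.47 ± 0.16 and -0.35 ± 0.12.

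**Figure D3:**
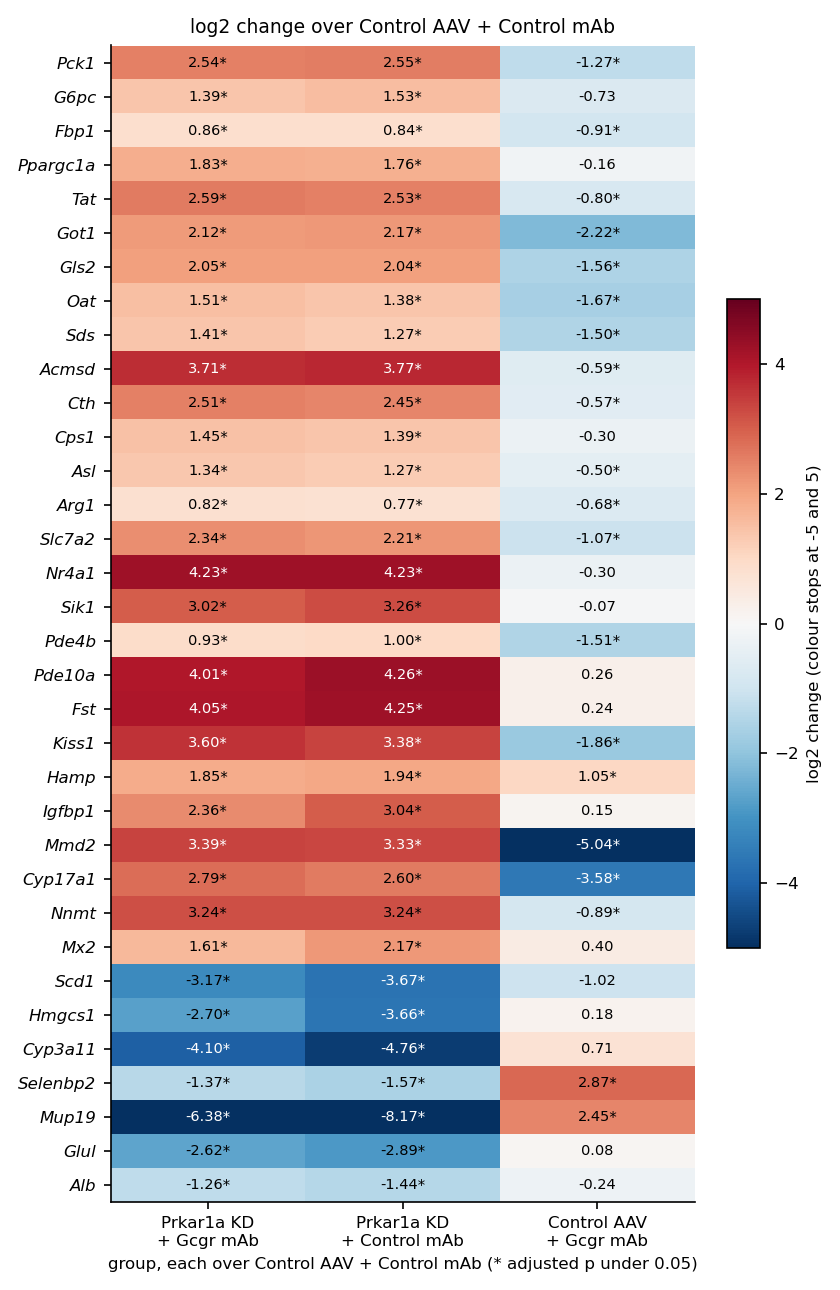
Log2 change over Control AAV + Control mAb in Prkar1a KD + Gcgr mAb, Prkar1a KD + Control mAb and Control AAV + Gcgr mAb for 34 genes, as colour and number, with an asterisk at an adjusted p under 0.05. The columns share the control libraries. Pck1 stands at 2.54, 2.55 and -1.27 in the 3 columns.

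No gene was called between the livers with both agents and those with the knockdown alone. KD + mAb over KD alone gave 0 called genes (0%) in edgeR, DESeq2 and limma-voom, with 846 genes at an unadjusted p under 0.05 in edgeR where 642 are expected at that level, and a smallest adjusted p of 0.447. Pck1 was at -0.0072 ± 0.18 (adjusted p = 0.999) in that comparison, Tat at 0.060 ± 0.12 (adjusted p = 0.967), Got1 at -0.050 ± 0.094 (adjusted p = 0.964) and Prkar1a at 0.072 ± 0.057 (adjusted p = 0.881). Some lists leaned without any called member. The median over KD alone was 0.55 for cholesterol synthesis and sterol handling, -0.42 for the interferon response and 0.39 for the circadian clock, against -0.0031 over all genes. A missing call does not show that the 2 groups were alike: for Hmgcs1 the difference was 0.96 ± 0.28, and for Thrsp 1.76 ± 0.50.

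KD alone over control gave 3761 genes higher (29.3%) and 3462 lower (26.9%), or 56.2% in either direction, beside the 26.0% and 24.2% of KD + mAb over the same control libraries. Against mAb alone, the KD + mAb libraries differed widely, with 3403 genes higher (26.5%) and 3416 lower (26.6%), or 53.1% together. Mmd2, a progestin and adipoQ receptor family member, was among the genes named for the size of their interaction. It averaged 84.8 ± 28.02 CPM in KD + mAb, 81.3 ± 17.6 CPM in KD alone, 0.239 ± 0.256 CPM in mAb alone and 8.05 ± 2.46 CPM in control. Cyp17a1, the steroid 17 alpha-hydroxylase, averaged 309.9 ± 134 CPM in KD + mAb, 272 ± 95.3 CPM in KD alone, 3.71 ± 1.75 CPM in mAb alone and 44.7 ± 15.4 CPM in control. Both genes were lowest with the antibody alone and high in the 2 knockdown groups. The interaction is the effect of the knockdown under the receptor antibody minus its effect under the control antibody, and 352 genes were positive (2.74%) and 172 negative (1.34%), or 4.08% together. It was 5.11 ± 0.38 (adjusted p = 2.67e-12) for Mmd2 and 3.77 ± 0.39 (adjusted p = 2.47e-08) for Cyp17a1. In amino acid catabolism, 19 of 61 genes had a positive interaction and 0 a negative one. Got1 was at 2.17 ± 0.14 (adjusted p = 4.46e-15), Oat at 1.8 ± 0.29 (adjusted p = 1.23e-04), Sds at 1.63 ± 0.28 (adjusted p = 3.57e-04) and Gls2 at 1.57 ± 0.14 (adjusted p = 3.74e-10). For Got1, mAb alone stood at 26.1 to 44.4 CPM (median 33.9), below all 10 control libraries. mAb alone over control called 375 genes higher (2.92%) and 677 lower (5.27%), or 8.19% together, and 24 of the 61 amino acid catabolism genes were among the lower ones and 0 among the higher ones. The interaction also equals KD + mAb over KD alone minus mAb alone over control. For this list the medians of these were 0.090, with 0 genes called, and -0.25. Its positive interactions and its falls with mAb alone are therefore largely the same result, not 2 separate ones. Pck1, Fbp1, Got1, Gls2, Oat, Sds, Asl and Arg1 were each called lower in mAb alone and higher in KD + mAb, both over the same control libraries.

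Among genes named for a negative interaction, Selenbp2 and Cav1 were high in mAb alone. Selenbp2, which has a near-identical paralog that may share its reads, averaged 19.97 ± 7.24 CPM in KD + mAb, 17.3 ± 7.16 CPM in KD alone, 375 ± 254 CPM in mAb alone and 51.5 ± 32.6 CPM in control. Its interaction was -2.67 ± 0.51 (adjusted p = 0.00146). Cav1, the caveolar coat protein, was at 2.18 ± 0.965 CPM in KD + mAb, 1.79 ± 0.444 CPM in KD alone, 16.8 ± 12.7 CPM in mAb alone and 3.06 ± 0.774 CPM in control, an interaction of -2.23 ± 0.46 (adjusted p = 0.00305). Over control, KD + mAb changed Selenbp2 by -1.37 ± 0.36 (adjusted p = 0.00181) and left Cav1 at -0.53 ± 0.33 (adjusted p = 0.183). Hamp, which encodes the iron hormone hepcidin, was at 1.94 ± 0.24 (adjusted p = 1.16e-08) in KD alone over control, 1.05 ± 0.24 (adjusted p = 0.00315) in mAb alone over control and 1.85 ± 0.24 (adjusted p = 4.29e-08) in KD + mAb over control. Its interaction was -1.14 ± 0.33 (adjusted p = 0.0406), -1.08 (adjusted p = 0.0562) without KD + mAb replicate 2 and -1.01 (adjusted p = 0.0692) without mAb alone replicate 2.

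Most genes of glucose use and fat synthesis were lower. Of 21 tested genes of glucose uptake, glycolysis and glycogen storage, 1 was higher and 13 were lower, with a median of -0.59. Among all genes tested, 26.0% were higher and 24.2% lower. Pklr, the liver pyruvate kinase, fell by 1.91 and the glucose transporter Slc2a2 by 1.41 on the log2 scale, while the glycogen targeting subunit Ppp1r3c was higher at 0.88 ± 0.28. Of 25 tested lipogenesis genes 0 were higher and 16 lower, with a median of -0.68. Scd1, the stearoyl-CoA desaturase, stood at 33.1 to 3446 CPM (median 727) in KD + mAb, against 4480.2 to 20832 CPM (median 10800.2) in control. The groups did not overlap, although replicate 7 of KD + mAb lay at the very bottom, and the change was -3.17 ± 0.47 (adjusted p = 4.95e-07). Thrsp, a lipogenic nuclear protein, was at 1.37 to 85.3 CPM (median 16.3) in KD + mAb and 158 to 699 CPM (median 289) in control, without overlap and with a change of -3.71 ± 0.51 (adjusted p = 1.52e-07). Srebf1, the transcription factor of lipogenesis, was lower at -0.86 ± 0.18 (adjusted p = 9.72e-05), and Acacb, the acetyl-CoA carboxylase at mitochondria, at -2.54 ± 0.32.

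Most lipid droplet proteins were lower. Of 16 tested, 0 were higher and 14 lower, beside 26.0% and 24.2% of all genes, with a median of -0.90. Cidea, which fuses lipid droplets, held 23 counts in all KD + mAb libraries together and 5451 in all control libraries, and its relative Cidec was at 0.547 to 8.74 CPM (median 0.811) in KD + mAb, against 4.79 to 75.3 CPM (median 46.6) in control, with overlapping ranges and a change of -4.29 ± 0.57 (adjusted p = 7.20e-08). Fitm1, which helps droplets form, fell by 2.59 on the log2 scale. Most genes of the cholesterol synthesis and sterol handling list were lower too, with 2 higher and 19 lower of 29 and a median of -0.72. Hmgcs1, which makes HMG-CoA, stood at 37.3 to 187 CPM (median 74.1) in KD + mAb, against 337 to 799 CPM (median 597) in control, with no overlap and a change of -2.7 ± 0.30 (adjusted p = 1.12e-09). The 2 higher genes of the list were Abcg5 (1.06 ± 0.14) and Abcg8 (1.14 ± 0.16), which form the transporter that secretes sterols into bile. Of 34 genes of fatty acid oxidation and ketogenesis 9 were higher and 19 lower. Fabp1, the liver fatty acid binding protein, fell to 1423 ± 359.7 CPM in KD + mAb, against 5402 ± 1136 CPM in control (-1.93 ± 0.14, adjusted p = 1.45e-14), and Acot1, an acyl-CoA thioesterase, rose by 1.05 ± 0.19.

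**Figure D4:**
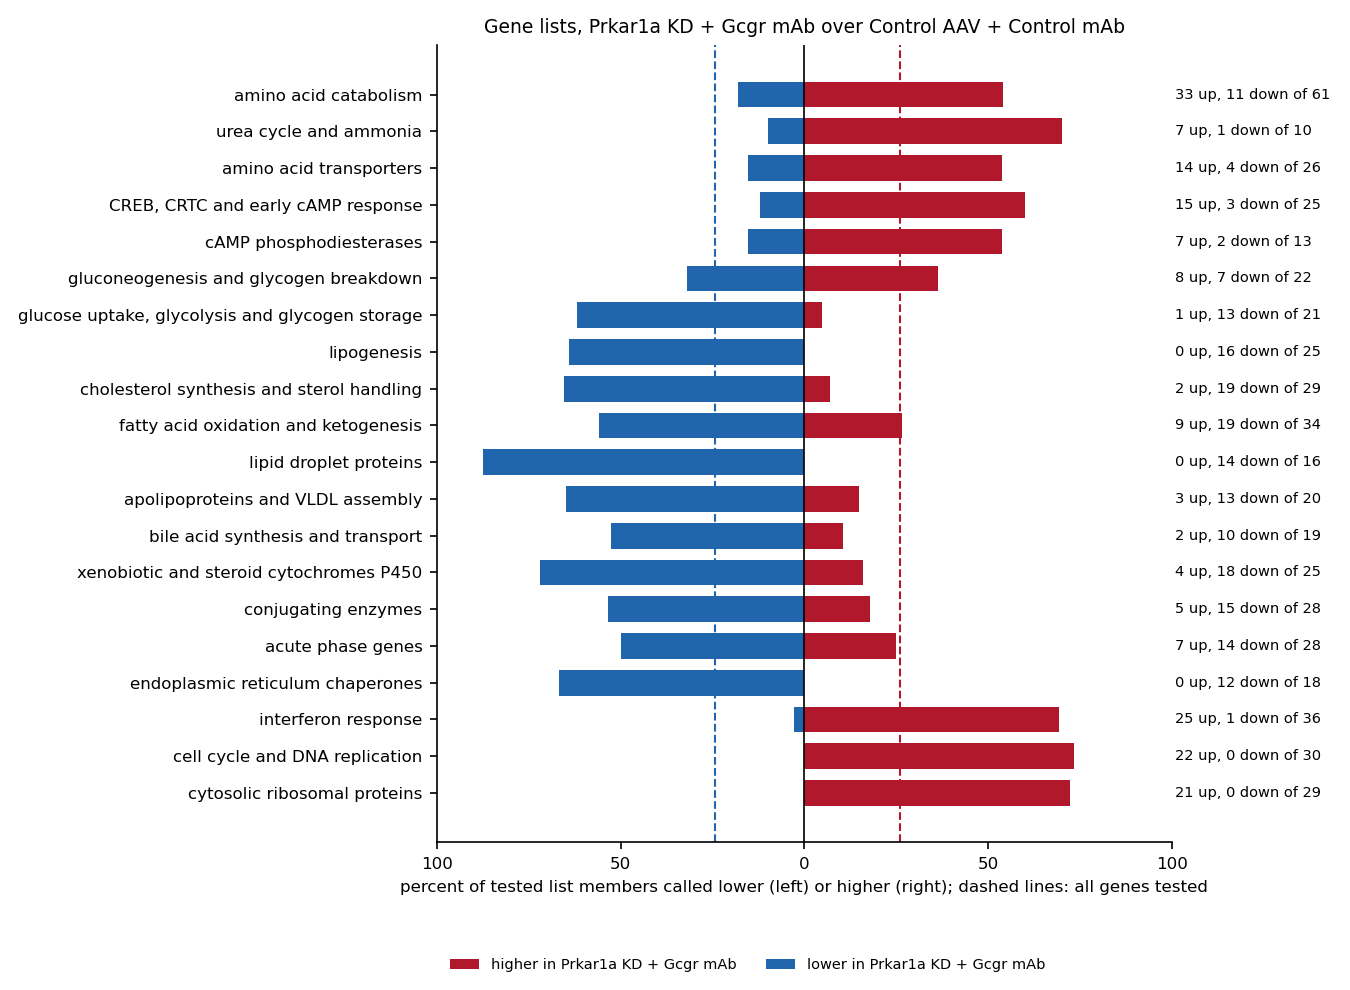
Percent of the tested members of 20 gene lists called higher (right, red) or lower (left, blue) in Prkar1a KD + Gcgr mAb over Control AAV + Control mAb, with the counts at the right and dashed lines at the 26.0% and 24.2% of all genes tested. The amino acid, cAMP, interferon, cell cycle and ribosomal lists lie mostly to the right, and the lipid and cytochrome P450 lists mostly to the left.

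Most enzymes of drug and steroid metabolism were lower. Of 25 tested cytochromes P450 of xenobiotic and steroid metabolism, 4 were higher and 18 lower, with a median of -1.02. For this and the lists that follow, 26.0% of all genes tested were higher and 24.2% lower. Cyp3a11, a major drug-metabolising enzyme of mouse liver, stood at 3.0 to 161 CPM (median 41.3) in KD + mAb, against 390.4 to 1429 CPM (median 856) in control. The groups were apart, at -4.1 ± 0.52 (adjusted p = 2.65e-08). Cyp2e1 and Cyp1a2, both enzymes of pericentral hepatocytes, were lower at -1.75 ± 0.17 and -1.74 ± 0.23. Cyp2a4, whose reads may be shared with close paralogs, was at 7.003 to 633 CPM (median 187) in KD + mAb and 0.601 to 31.8 CPM (median 10.7) in control, an overlapping pair of ranges with a change of 4.15 ± 0.75 (adjusted p = 1.89e-05). Of 28 conjugating enzymes 5 were higher and 15 lower. Nnmt, which methylates nicotinamide, was at 498 to 680.4 CPM (median 602) in KD + mAb, against 45.8 to 89.3 CPM (median 65.8) in control, without overlap and with a change of 3.24 ± 0.20 (adjusted p = 2.13e-16). Ugt1a1, which conjugates bilirubin and shares exons with other Ugt1a genes so that its reads may be shared, was lower at -2.32 ± 0.15 (adjusted p = 4.71e-16). In the bile acid list 2 of 19 were higher and 10 lower. Cyp7b1 rose by 1.37 ± 0.30, Cyp27a1 and the uptake carrier Slco1b2 fell by 0.92 and 1.06 on the log2 scale, and Cyp7a1, the rate-limiting enzyme, was at 0.54 ± 0.25 (adjusted p = 0.0731), or 0.61 (adjusted p = 0.041) without KD + mAb replicate 7. Of 18 pericentral Wnt target genes 3 were higher and 9 lower.

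**Figure D5:**
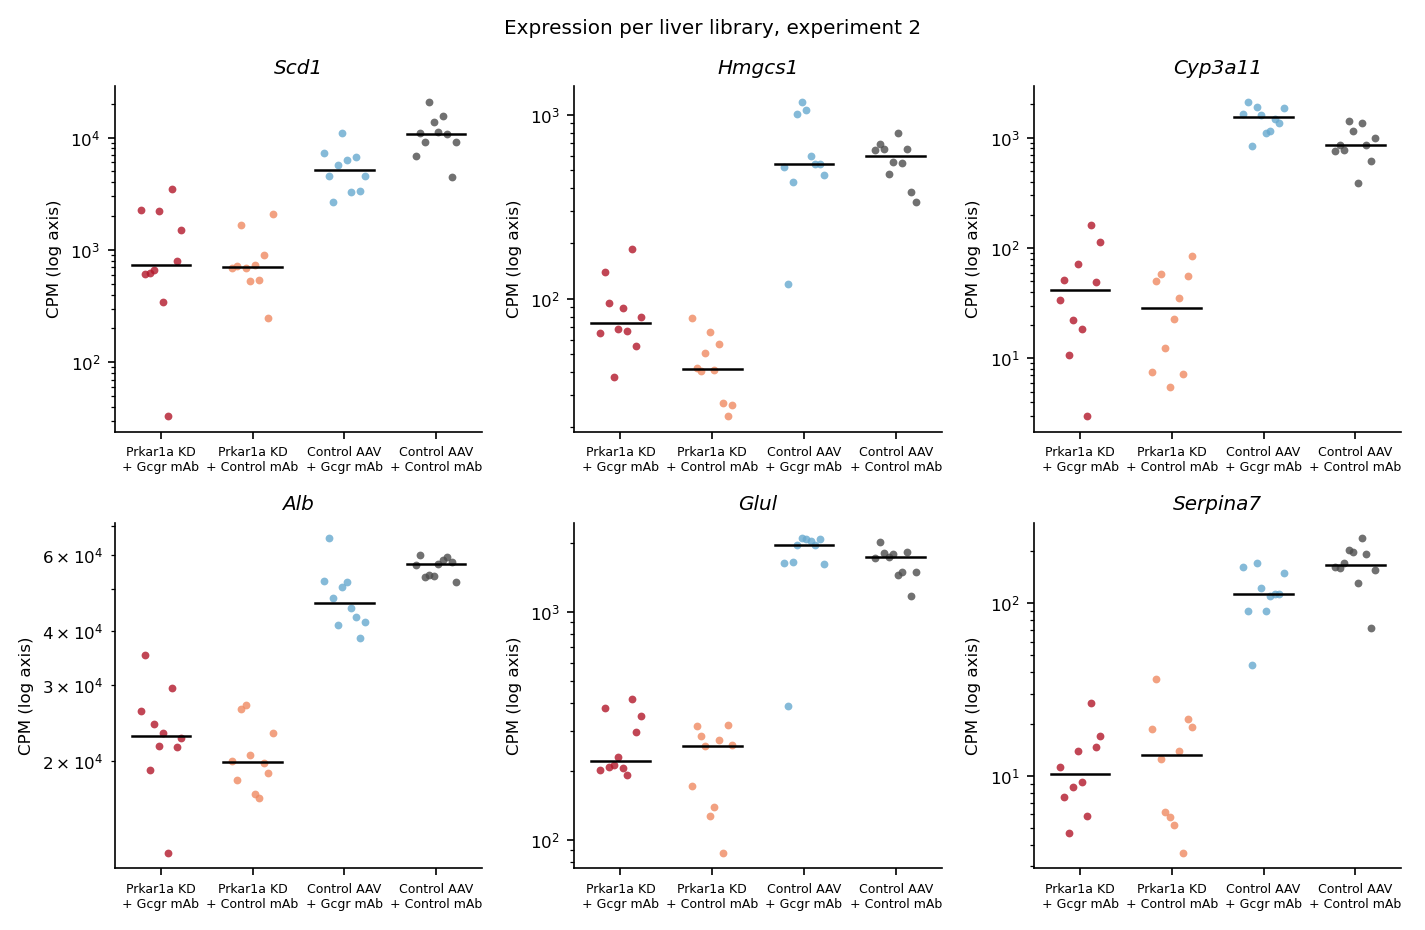
CPM on a log axis in each of the 10 libraries (points) of the 4 groups of experiment 2, with the group median as a line, for 6 genes that were lower in KD + mAb. KD + mAb lies below control without overlap for all 6 genes, and it overlaps mAb alone for Scd1, Hmgcs1 and Glul.

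Albumin and many other secreted liver proteins were lower. Alb stood at 12262 to 35188 CPM (median 22907) in KD + mAb, against 52124 to 60115 CPM (median 57188) in control, apart in all libraries, with a change of -1.26 ± 0.12 (adjusted p = 8.79e-12). Transthyretin (Ttr) and apolipoprotein A-I (Apoa1) were lower at -1.58 ± 0.13 and -1.52 ± 0.11, and the thyroxine-binding globulin gene Serpina7 was at 4.702 to 26.6 CPM (median 10.2) in KD + mAb, against 71.8 to 238 CPM (median 166) in control, again without overlap (-3.81 ± 0.34, adjusted p = 8.46e-12). Among 16 plasma carriers 5 were higher and 9 lower. The hemopexin gene Hpx (0.66 ± 0.13) and the corticosteroid-binding globulin gene Serpina6 (0.79 ± 0.16) were among the higher ones. Apolipoprotein and VLDL assembly genes counted 3 higher and 13 lower of 20, with Apoa4 at -2.35 ± 0.51 (adjusted p = 1.96e-04). Complement and coagulation genes counted 13 higher and 11 lower of 35 (37.1% and 31.4%, beside 26.0% and 24.2% of all genes). The central complement gene C3 was higher at 0.76 ± 0.10 and the factor XI gene F11 lower at -0.92 ± 0.17. Of 28 acute phase genes 7 were higher and 14 lower. Orm1 fell by 2.58 on the log2 scale and Stat3 rose by 0.69 ± 0.097. The major urinary protein genes, close copies that can share reads, counted 1 higher and 15 lower of 21, with a median of -2.35 and a range from -6.38 (Mup19) to 1.04 (Mup20).

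Among secreted hepatic hormones and binding proteins, Fst, Kiss1, Igfbp1, Hamp and Enho were higher. Of 25 tested, 7 were higher and 8 lower, shares near the 26.0% and 24.2% of all genes. Fst, follistatin, which binds activins and is raised by glucagon, stood at 37.1 to 62.4 CPM (median 52.9) in KD + mAb, against 1.23 to 4.74 CPM (median 3.19) in control, without overlap, at 4.05 ± 0.26 (adjusted p = 8.90e-16). Kiss1, kisspeptin, was at 2.53 to 4.95 CPM (median 4.02) in KD + mAb and 0.0817 to 0.511 CPM (median 0.319) in control, also apart, with a change of 3.6 ± 0.22 (adjusted p = 1.29e-16). Igfbp1, a binding protein of insulin-like growth factors, rose by 2.36 ± 0.39 (adjusted p = 3.72e-06). Hamp rose by 1.85 ± 0.24, and Enho, which encodes adropin, by 2.19 ± 0.33. Inhbe, an activin subunit, fell by 1.85 on the log2 scale, and Fgf21 was at -0.32 ± 0.46 (adjusted p = 0.593). Insulin signalling genes counted 8 higher and 3 lower of 20, Irs1 being higher at 1.57 ± 0.12 (adjusted p = 6.61e-14). In the ATF4 list, genes of the response to amino acid shortage, 8 were higher and 5 lower of 22 (36.4% and 22.7%). Asns, asparagine synthetase, was at 6.16 to 47.2 CPM (median 15.3) in KD + mAb, against 0.129 to 2.07 CPM (median 0.359) in control, without overlap (4.81 ± 0.56, adjusted p = 4.38e-09), and Aars, the alanyl-tRNA synthetase, rose by 0.94 ± 0.093. Trib3 and Chac1, which ATF4 induces, were lower at -1.2 ± 0.33 and -2.76 ± 0.39. Of 18 endoplasmic reticulum chaperones 0 were higher and 12 lower, among them Herpud1 at -0.89 ± 0.11 and Manf at -0.92 ± 0.22.

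Cell cycle, ribosomal protein and interferon genes were higher more often than lower. Of 30 cell cycle and DNA replication genes 22 were higher and 0 lower, with a median of 1.15. The mitotic kinase gene Cdk1 was at 2.0 to 6.26 CPM (median 3.98) in KD + mAb and 0.453 to 2.15 CPM (median 1.32) in control, with overlapping ranges and a change of 1.46 ± 0.33 (adjusted p = 3.36e-04). Plk1, another mitotic kinase, was higher at 1.61 ± 0.48. Of 29 cytosolic ribosomal protein genes 21 were higher and 0 lower, by small amounts with a median of 0.31. Rpl3, at 0.44 ± 0.075, and Rps3, at 0.43 ± 0.068, were among them. Interferon response genes counted 25 higher and 1 lower of 36, with a median of 0.80. Mx2, an antiviral GTPase, was at 9.41 to 21.9 CPM (median 15.3) in KD + mAb, against 3.83 to 7.34 CPM (median 4.99) in control, without overlap and at 1.61 ± 0.17 (adjusted p = 1.99e-10). Rsad2 and Ifit1 rose by 1.92 ± 0.32 and 1.61 ± 0.27, and the immunoproteasome subunit gene Psmb9 was lower at -0.53 ± 0.15. Mx2 averaged 23.1 ± 5.599 CPM in KD alone and 6.79 ± 1.99 CPM in mAb alone. Of 26 nuclear receptors and hepatocyte transcription factors 7 were higher and 7 lower (26.9% each), near the 26.0% and 24.2% of all genes. Hnf4a, a main factor of hepatocyte identity, was higher at 0.69 ± 0.066 (adjusted p = 1.73e-11), and Nr1i3, the xenobiotic receptor CAR, was lower at -0.88 ± 0.17 (adjusted p = 4.59e-05).

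Several of the largest rises were in genes with few counts in control liver. Pcdh20, a protocadherin, held 1869 counts in all KD + mAb libraries together and 6 in all control libraries, Ren1, renin, 741 and 3, and Col22a1, a collagen, 725 and 6. Fitted changes of such genes depend on the prior count and are not given. Tuba8, a tubulin, stood at 35.1 to 57.8 CPM (median 47.9) in KD + mAb, against 0.129 to 2.63 CPM (median 0.956) in control, without overlap (5.26 ± 0.25, adjusted p = 6.27e-20). Lrp2, the endocytic receptor megalin, rose by 4.51 ± 0.35 (adjusted p = 1.40e-13), Nptx1, a pentraxin, by 4.61 ± 0.24, and Jazf1, a zinc finger regulator, by 4.95 ± 0.23. The imprinted noncoding RNAs Meg3 and Rian of chromosome 12 were also among the 12 largest rises. Meg3 was at 24.3 to 110.5 CPM (median 70.5) in KD + mAb, against 0.267 to 6.701 CPM (median 1.23) in control, a change of 5.22 ± 0.35 (adjusted p = 2.98e-15). Rian was at 12.3 to 46.8 CPM (median 32.02) in KD + mAb and 0.0897 to 1.42 CPM (median 0.3401) in control, a change of 6.06 ± 0.27 (adjusted p = 1.54e-20). Neither overlapped between the groups. Of 13 imprinted RNAs tested 6 were higher and 1 was lower. H19 was higher at 3.07 ± 0.97 (adjusted p = 0.00856), but 1 library, KD + mAb replicate 2 at 41.9 CPM, decided this: without it, left out after seeing the data, the change was 0.86 with an adjusted p of 0.387. Among the falls, Orm3, an orosomucoid paralog, held 3 counts in all KD + mAb libraries and 1058 in control, Cfd, complement factor D, 16 and 847, and Themis and Rarres1 fell by 5.04 and 4.97 on the log2 scale.

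Markers of liver cell types showed which signals the samples held. Beside the counts below, 26.0% of all genes tested were higher and 24.2% lower. The defining hepatocyte gene Alb was abundant in all libraries. The summed level of 10 hepatocyte markers was 29510 to 58080 CPM in KD + mAb and 77040 to 88300 CPM in control, with 4 higher and 6 lower. These markers include Alb, Apoa1, Ttr, Fabp1 and Cyp3a11, which fell, and Cps1, Tat and Hnf4a, which rose. Their sum therefore does not measure hepatocyte content. Stellate and fibroblast markers summed to 251 to 405 CPM in KD + mAb and 318 to 461 CPM in control, 0 higher and 5 lower of 13. Col1a1, a collagen of these cells, averaged 4.27 ± 1.87 CPM in KD + mAb and 14.4 ± 6.500 CPM in control (-1.76 ± 0.38, adjusted p = 1.62e-04). Endothelial markers summed to 104 to 194 CPM in KD + mAb and 114 to 251 CPM in control, 0 higher and 5 lower of 12, with Stab2 at -0.68 ± 0.16. Kupffer cell and macrophage markers summed to 135 to 361 CPM in KD + mAb and 163 to 342 CPM in control, with 1 of 14 called, Itgam at 0.82 ± 0.33 (adjusted p = 0.0375), and at 0.61 (adjusted p = 0.125) without KD + mAb replicate 7. Red cell markers summed to 21.8 to 401 CPM in KD + mAb and 414 to 1151 CPM in control, with 0 higher and 2 lower of 4, and Hba-a1, whose reads may be shared with its copy, was lower at -2.21 ± 0.38 (adjusted p = 8.45e-06). T and NK cell markers summed to 4.94 to 13.3 CPM in KD + mAb and 1.74 to 8.82 CPM in control, with 1 higher and 0 lower of 8, Cd4 being higher at 1.28 ± 0.34. The part of these cells in the changes of other genes was not tested.

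Experiment 1 holds a group labelled PKA KD. Its 10 libraries were compared with 10 control libraries of that experiment, none of them used above, and this comparison was added after the data were seen. There, 17.7% of 13574 genes tested were higher and 14.8% lower with PKA KD, or 32.4% together. Tat changed by -1.14 ± 0.21 (adjusted p = 2.28e-05) with PKA KD, Pck1 by -1.03 ± 0.19 (adjusted p = 3.04e-05), G6pc by -1.18 ± 0.24 (adjusted p = 1.12e-04) and Gls2 by -1.16 ± 0.21 (adjusted p = 2.13e-05), each opposite in sign to KD + mAb. Of the lists, 28 of 61 amino acid catabolism genes were lower and 4 higher with PKA KD, and in lipogenesis 13 of 25 genes were lower and 0 higher. The list of CREB, its coactivators and the early cAMP response, often higher in KD + mAb, counted only 2 higher and 4 lower of 26 with PKA KD. Scd1 was at -2.28 ± 0.68 (adjusted p = 0.00773) with PKA KD. Of 36 interferon genes 17 were higher and 1 lower with PKA KD. Meg3 and Rian rose there as well, by 5.26 and 4.77. Of 3292 genes higher in KD + mAb and tested in both experiments, 17.16% were higher and 17.62% lower with PKA KD, against 17.53% and 15.57% of all 12746. Of 3107 genes lower in KD + mAb, 21.47% were higher and 19.28% lower with PKA KD. Seen the other way, of 1985 genes lower with PKA KD 29.22% were higher and 30.18% lower in KD + mAb. Of 2235 genes higher with PKA KD, 25.28% were higher and 29.84% lower in KD + mAb. Among all 12847 genes tested in experiment 2, 26.0% were higher and 24.2% lower in KD + mAb. Of 399 genes with a log2 change over 1 in KD + mAb, 20.55% were higher and 12.53% lower with PKA KD. Of 584 genes with a change under -1, 25.68% were higher and 16.78% lower. The larger falls thus leaned to the opposite sign with PKA KD, and the larger rises to the same sign. By these shares, the calls of the 2 experiments were not opposite as a whole. Tat, Pck1, G6pc and Gls2, named from a larger set of fixed genes, were opposite.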

How the data were processed

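Polyadenylated RNA from mouse liver was sequenced in 90 samples of 2 experiments. Per the labels' protocols, RNA was isolated with a MagMAX kit and DNase, mRNA was purified with Dynabeads, and strand-specific KAPA libraries went through PCR. The submitters' processing notes name bcl2fastq 2.17, FastQC and the builds GRCm38 and mm10. The deposited tables hold expected counts that the authors made per Entrez gene and sample, per the file headers. The sources used here give neither aligner nor counting program. In experiment 2, 8.555% of entries had a fractional part and all were rounded to whole counts before testing. Of 24475 genes 24375 matched a symbol, 5221 were 0 in every library, and 0 per-sample columns were left unused.

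Groups came from the labels. Changes were tested in edgeR 4.0.16 (R 4.3.3) on all 40 libraries of experiment 2, which share 1 estimate of the spread (36 residual degrees of freedom, common dispersion 0.03944). Genes were filtered by filterByExpr with a minimum count of 10, libraries were scaled by TMM, and the quasi-likelihood F test was adjusted by Benjamini-Hochberg over 12847 genes. On simulated data the test missed the first goal set for recovering moderate changes. That goal was replaced, after this result was seen, by checks of bias, false calls and larger changes, which it passed. Experiment 1 was fitted separately. The text names fixed pathway genes, the 12 largest rises and falls at an average log2 CPM of at least 1, up to 4 called members of each list and direction, and the largest interactions. Members and lists were chosen with earlier results of these data known. Alternatives were RLE scaling, no filter, DESeq2 1.42.0, limma-voom (limma 3.58.1), the 2 groups alone, a replicate block and, chosen after seeing the data, leaving out each of 4 libraries. Motifs were searched in promoter sequences from RefSeq (GRCm38.p6). 2611 tested genes had no promoter window. Counts of 2 libraries of a group differed by more than Poisson noise in all 180 pairs (lowest chi-squared per gene 7.643).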

Additional observations from a re-analysis of the deposited data

Results flagged for a closer look

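In some genes 1 library of a group lay far from the other 9, with a gap to its neighbour above Dixon's critical share of the group's range on the log2(CPM + 0.5) scale. Of 262 tests over 131 genes, 22 gave such a library, and chance gives about 1 in 20 groups. In KD + mAb replicate 2 the library stood apart for Cyp2a4 lowest at 7.003 CPM (next 62.2), H19 highest at 41.9 CPM (next 3.88) and Rian lowest at 12.3 CPM (next 23.2). In KD + mAb replicate 3 the library stood apart for Pcx lowest at 266 CPM (next 299). In KD + mAb replicate 7 the library stood apart for Cyp27a1 lowest at 115 CPM (next 163), Fbp1 lowest at 1137 CPM (next 1448), G6pc lowest at 133 CPM (next 421), Hba-a1 lowest at 4.58 CPM (next 25.0), Irs1 lowest at 56.4 CPM (next 76.5), Pcbd1 lowest at 92.1 CPM (next 109.8), Prkaca lowest at 49.9 CPM (next 61.4), Scd1 lowest at 33.1 CPM (next 339.8) and Srebf1 lowest at 43.5 CPM (next 77.9). In KD + mAb replicate 8 the library stood apart for Psmb9 highest at 18.7 CPM (next 10.7). In control replicate 2 the library stood apart for Pde2a lowest at 6.99 CPM (next 11.6). In control replicate 4 the library stood apart for Pde10a highest at 1.198 CPM (next 0.538). In control replicate 9 the library stood apart for Fgf21 lowest at 1.04 CPM (next 4.12), Pde1a highest at 4.73 CPM (next 3.10) and Serpina7 lowest at 71.8 CPM (next 131). In control replicate 10 the library stood apart for Prkar1a lowest at 97.8 CPM (next 119), Slc2a2 lowest at 184 CPM (next 254) and Slc38a2 lowest at 48.9 CPM (next 69.4). The part of these libraries in the changes was not tested beyond leaving out KD + mAb replicates 2 and 7 and control replicate 10.

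In 30 of the genes named here, the effect of the Prkar1a knockdown differed between the receptor antibody and the control antibody, by edgeR's interaction test at an adjusted p under 0.05. The same test compares KD + mAb over KD alone, which gave 0 called genes, with mAb alone over control. The interactions, as log2 change ± SE, were positive for Mmd2 5.11 ± 0.38, Cyp17a1 3.77 ± 0.39, Nptx1 2.56 ± 0.45, Got1 2.17 ± 0.14, Kiss1 2.09 ± 0.40, Oat 1.80 ± 0.29, Sds 1.63 ± 0.28, Gls2 1.57 ± 0.14, Pde4b 1.44 ± 0.19, Nr4a2 1.44 ± 0.35, Pck1 1.26 ± 0.25, Slc7a2 1.2 ± 0.17, Fbp1 0.92 ± 0.099, Nnmt 0.89 ± 0.26, Tat 0.86 ± 0.17, Arg1 0.73 ± 0.12, Cth 0.64 ± 0.15, Slc25a15 0.62 ± 0.12, Asl 0.58 ± 0.13, Pcbd1 0.40 ± 0.12 and Pcx 0.34 ± 0.088. They were negative for Selenbp2 -2.67 ± 0.51, Cav1 -2.23 ± 0.46, Enho -1.69 ± 0.44, Ifit1 -1.40 ± 0.38, Mup20 -1.35 ± 0.23, Hamp -1.14 ± 0.33, Mx2 -0.96 ± 0.23, Stab2 -0.79 ± 0.23 and Rapgef4 -0.67 ± 0.16.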

How the results depend on the processing

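The numbers of genes higher and lower in KD + mAb than in control ranged from 3098 to 3468 and from 3040 to 3347 over the 10 alternatives, and 5972 of 6283 calls tested remained with only the 2 groups fitted, the lowest number. KD + mAb over KD alone gave 0 called genes in all 10, with 711 to 1285 genes at an unadjusted p under 0.05. The number of genes with a negative interaction was 106 without the filter on low counts, against 172 with it, where more genes shared the adjustment. Interactions counted 496 positive and 256 negative in DESeq2, the highest numbers, and 438 and 238 without KD + mAb replicate 7, against 352 and 172.

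Of 131 named genes, 128 or more kept their side of the threshold under each alternative that tested them. H19 was at 1.54 with the replicate block, 1.06 in limma-voom, 0.79 in DESeq2 and 0.86 without KD + mAb replicate 2, none of them called. Itgam lost its call in limma-voom. Cav1 was called, at -0.53, with only the 2 groups fitted. The cause was not tested. Of 30 called interactions of named genes, 25 or more stayed called under each alternative, and those of Pcbd1, Nnmt, Stab2, Hamp, Ifit1, Cav1, Nptx1 and Nr4a2 lost it under at least 1.

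Same-numbered samples do not pair by the labels. Deviations of KD + mAb and control libraries of the same number correlated above 0.1 in 4 of 10 pairs (mean 0.067), and 2 libraries correlated best with their own number. With the number as a replicate block 3394 genes were higher and 3096 lower in KD + mAb. Among lists, interferon response counted 30 higher and 1 lower without KD + mAb replicate 2, and endoplasmic reticulum chaperones 0 higher and 15 lower without control replicate 10. Phosphodiesterases counted 7 higher and 2 lower of 13 with all libraries. They counted 5 and 2 without KD + mAb replicate 2, without KD + mAb replicate 7 and without control replicate 10. Sequencing depth limits genes with few counts, and the sources used here give neither mouse, sex nor batch.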

Other observations

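Some gene groups of the same comparison are not described above. Beside the counts below, 26.0% of all genes tested were higher and 24.2% lower. Of 17 cytosolic aminoacyl-tRNA synthetase genes tested, which load amino acids onto tRNA and were grouped after their values were seen, 10 were higher and 2 lower in KD + mAb than in control, with a median log2 change of 0.31. Circadian clock genes counted 2 higher and 4 lower of 19 (10.5% and 21.1%), and p53 target genes 3 higher and 3 lower of 19 (15.8% each). Growth hormone signalling and male-biased genes counted 5 higher and 7 lower of 21 (23.8% and 33.3%). Subunits of oxidative phosphorylation encoded in the nucleus counted 9 higher and 5 lower of 30 (30.0% and 16.7%). Cholangiocyte markers counted 0 higher and 2 lower of 6, B cell markers 0 and 0 of 5, neutrophil markers 0 and 0 of 3, mesothelial markers 0 and 2 of 3, adipocyte markers 0 and 1 of 2 and pancreatic acinar markers 0 and 1 of 1.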
